A study of Mus musculus with 6 samples.

Results

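The ephrin, semaphorin, slit and netrin genes are the ligands and receptors of the 4 classical axon guidance systems. They were taken from the count table by gene symbol: the Eph receptors, the ephrins, the semaphorins of classes 3 to 7, the plexins, the neuropilins Nrp1 and Nrp2, and Slit1 to Slit3, Robo1 to Robo3, the netrins and the Unc5 receptors. The table held 67 such genes among 26586, and 63 of them had enough counts to be tested, among 16896 tested genes. The libraries are ribosomal RNA-depleted RNA-seq of sorted cells from the uterus of 3 mice carrying Axin2rtTA and tetOH2BJGFP, in which the Axin2 promoter drives a doxycycline-dependent activator of a nuclear green fluorescent protein. Surgical removal of the ovaries took place at an age of 4 weeks in all mice. Doxycycline followed after 2 weeks of rest, and the uterus was taken after a further 4 days, with the age labelled 6 weeks. The fluorescent cells are labelled Axin2+ and the non-fluorescent cells Axin2-, with 3 libraries each, numbered by mouse. Both fractions thus carry both transgenes and had the same surgery and drug. The protocol in the labels mentions, besides, that cells of the 3 mice were put together. If the libraries came from 1 pool, the p-values measure only the spread between libraries of that pool.

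Ephrins are membrane-bound ligands that act on Eph receptor tyrosine kinases of touching cells, with signals running in both directions, and they set boundaries between cell populations in epithelia and vessels. Semaphorins bind plexins, and the secreted class 3 members mostly need a neuropilin as co-receptor. Slits signal through Robo receptors, and netrins through Dcc, neogenin and Unc5 receptors. All 4 systems are known for steering axons, and all also act on adhesion, migration and branching in epithelial organs and blood vessels.

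Of the 67 genes 58 had a promoter sequence in the RefSeq set of GRCm38.p6, with 74 windows of 300 bases. A set of 4 windows of 250 bases that end at the transcription start are shown because they belong to the members with the largest fold changes, 2 in each direction, among those that passed with a mean of at least 5 CPM (counts relative to the library's TMM-scaled total, the unit of all levels here), a single start in that set and no annotated exon in the window. Each is given 5′ to 3′ on the strand of its gene. Sema3e (chr5:14025026-14025275, plus strand) and Efnb2 (chr8:8661243-8661492, minus strand) were higher in the libraries labelled Axin2+. Epha3 (chr16:63864176-63864425, minus strand) and Efna2 (chr10:80179232-80179481, plus strand) were lower there. Capitals mark matches, on either strand, to CACCTG (an E-box), to CTTTGAT or CTTTGAA (TCF/LEF) or to CCGGAAG (ETS).
Sema3e: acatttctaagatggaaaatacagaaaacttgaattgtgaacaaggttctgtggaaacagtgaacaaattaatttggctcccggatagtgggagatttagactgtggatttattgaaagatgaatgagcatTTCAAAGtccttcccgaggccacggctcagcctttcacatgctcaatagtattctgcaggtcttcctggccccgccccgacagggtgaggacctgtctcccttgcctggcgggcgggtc
Efnb2: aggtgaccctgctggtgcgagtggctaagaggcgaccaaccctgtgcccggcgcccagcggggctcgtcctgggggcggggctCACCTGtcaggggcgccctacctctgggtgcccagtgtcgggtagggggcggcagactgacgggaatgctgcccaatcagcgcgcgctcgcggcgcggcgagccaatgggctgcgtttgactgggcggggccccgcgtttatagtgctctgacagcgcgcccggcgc
Epha3: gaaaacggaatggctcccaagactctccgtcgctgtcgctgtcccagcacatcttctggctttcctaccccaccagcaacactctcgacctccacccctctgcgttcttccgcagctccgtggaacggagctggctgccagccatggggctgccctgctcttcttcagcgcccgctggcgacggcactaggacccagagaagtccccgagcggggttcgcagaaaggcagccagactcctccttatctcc
Efna2: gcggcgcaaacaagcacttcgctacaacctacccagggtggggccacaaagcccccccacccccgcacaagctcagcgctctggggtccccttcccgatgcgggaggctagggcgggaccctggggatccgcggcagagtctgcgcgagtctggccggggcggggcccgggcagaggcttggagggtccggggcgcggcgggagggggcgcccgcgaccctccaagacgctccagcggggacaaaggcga
The Sema3e window held 1 TCF/LEF match, which began 119 bases before the start and reads TTCAAAG on the gene's strand. The Efnb2 window held 1 E-box, which began 167 bases before the start. The Epha3 and Efna2 windows held no match to these letters. The 300-base windows of the members, tested or not, held the E-box in 13.5%, against 19.7% of those of all genes in the count table. For TCF/LEF the shares were 4.05% and 7.75%, and for ETS 2.70% and 11.2%. Of the windows of all tested genes 18.7% held the E-box, 6.22% TCF/LEF and 14.7% ETS. In the 19 windows of members that were higher in the libraries labelled Axin2+ there were 3 with an E-box, 1 with TCF/LEF and 1 with ETS. In the 13 windows of members that were lower there was 1 with an E-box and 1 with TCF/LEF. A match is a description of letters, not of a bound site.

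Counts over all genes summed to between 49714402 and 59597315 per library. Axin2 itself, measured to check the labels, stood at 369, 357 and 356 CPM in mice 1, 2 and 3 for the libraries labelled Axin2- and at 165, 243 and 299 CPM in those labelled Axin2+. The transcript was thus lower in all 3 libraries labelled Axin2+ (log2 fold change -0.61 ± 0.21 SE, edgeR adjusted p = 0.0710, not passed). It passed with DESeq2 (adjusted p = 0.0260) and without mouse 3 of the Axin2+ libraries (0.0290). Every direction given here is therefore that of the libraries as labelled. The libraries also differed in cell type markers. All 14 epithelial markers were higher in the libraries labelled Axin2+, with summed levels of 2680 to 3834 CPM against 239 to 342 CPM. All 4 tested uterine gland markers (196 to 277 against 12.8 to 25.3 CPM, with Prss29 at 0 in every library and Prss28 at 0 in those labelled Axin2-) and all 6 luminal markers (1233 to 1419.6 against 72.0 to 177 CPM) were higher too. Of the stromal fibroblast markers 8 of 10 were lower (3114 to 4292 against 9822 to 20961 CPM), as were 9 of 10 of the smooth muscle and pericyte markers (209.6 to 416 against 2406 to 6117 CPM). All 8 macrophage markers were higher (670.4 to 3886 against 47.3 to 307 CPM), as were 6 of 10 endothelial markers (259.8 to 469 against 203 to 246 CPM). The endothelial marker Cdh5, chosen after its values were seen, lay lower without overlap and did not pass (log2 fold change -0.82 ± 0.26, edgeR adjusted p = 0.0559). Its mean was 78.9 ± 20.8 CPM in the libraries labelled Axin2+ against 139.7 ± 36.5 CPM, a large part of these sums. Of 6 mesothelial markers 3 were higher and 1 was lower (178 to 471 against 174 to 224 CPM). Of 6 T and NK cell markers 4 were lower (0.264 to 1.55 against 12.0 to 18.2 CPM). The 5 tested nerve and Schwann cell markers did not pass (sums over the list of 117 to 218 against 173 to 227 CPM). Most of these sums was Ncam1, at 154 ± 53.3 CPM in the libraries labelled Axin2+ against 151 ± 23.0 CPM. Ngfr lay lower without overlap (log2 fold change -1.57 ± 0.52, edgeR adjusted p = 0.0642). Both genes were chosen after their values were seen. S100b of that list, which was not tested, was at 0 in the libraries labelled Axin2-. The defining smooth muscle gene Myh11, chosen after its values were seen, stood at 2882, 822 and 2386 CPM in libraries labelled Axin2- and at 38.5, 35.1 and 31.6 CPM in those labelled Axin2+, although the labels call both fractions epithelial. In such bulk libraries fewer cells of a type and less RNA per cell cannot be told apart, and the part of these marker differences in the results that follow was not tested.

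**Figure D1:**
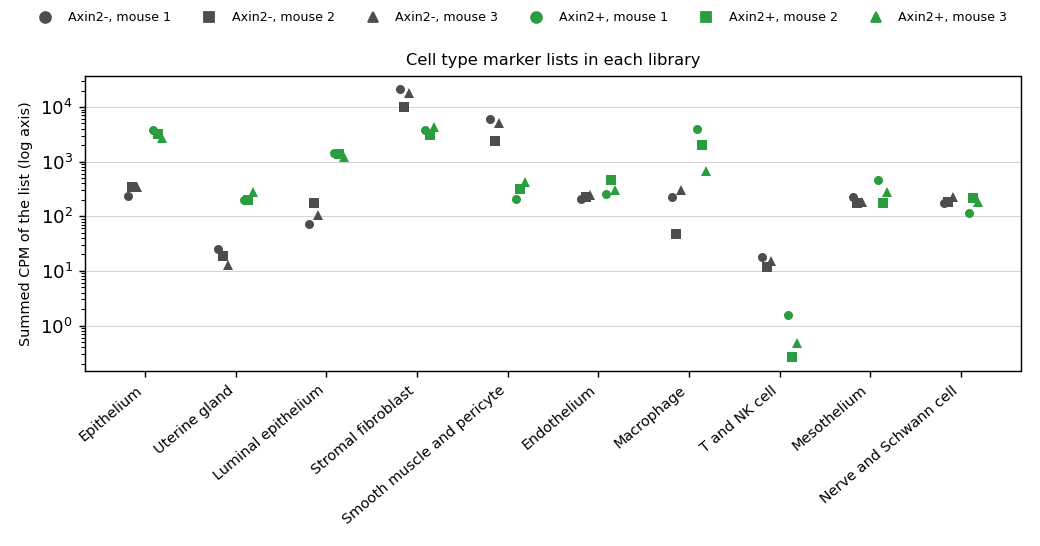
Summed CPM of each cell type marker list (log axis) in each of the 6 libraries, grey for those labelled Axin2- and green for those labelled Axin2+, with 1 symbol per mouse. The epithelial sums of 2680 to 3834 CPM in libraries labelled Axin2+ stand apart from 239 to 342 CPM, and the smooth muscle sums of 209.6 to 416 CPM stand apart from 2406 to 6117 CPM.

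Guidance genes differed between the fractions in both directions. Of the 63 tested members 13 were higher and 13 were lower in the libraries labelled Axin2+ (edgeR quasi-likelihood test, adjusted p under 0.05), and 37 did not pass. That is 41.3% of the members, against 27.3% of all tested genes. By direction it is 20.6% each, against 14.5% of all genes higher and 12.8% lower. The same shares of all tested genes are the background for the family counts that follow. The median log2 fold change was 0.08 over the members and -0.01 over all tested genes, whereas the median of its absolute size was 1.01 over the members and 0.52 over all. In all 26 members that passed, the 3 libraries of one fraction lay outside the range of the other. The fractions did not overlap in 60.3% of the members, against 47.2% of all tested genes. Members lay apart upward in 31.7%, against 23.9% of all, and downward in 28.6%, against 23.2%. Of the 26, 17 passed in all 13 alternative analyses and 9 lost the call in at least 1. In a single-gene exact two-sided permutation test, 3 libraries against 3 cannot give a p below 0.1. With library-size scaling, 18 members were higher and 10 lower, beside 19.3% of all genes higher and 9.31% lower and a median log2 fold change of 0.16 over all genes. The count of lower members was 5 without mouse 2 of the Axin2+ libraries, where 6.04% of all tested genes were lower. It was 8 without mouse 1 and 8 without mouse 3 of the Axin2- libraries, where 7.35% and 7.54% of all were lower. The share of all tested genes called lower thus fell in the same fits, from 12.8%. The higher members numbered 12 or 13 in these fits, where 8.55%, 10.6% and 10.7% of all tested genes were higher, against 14.5%.

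**Figure D2:**
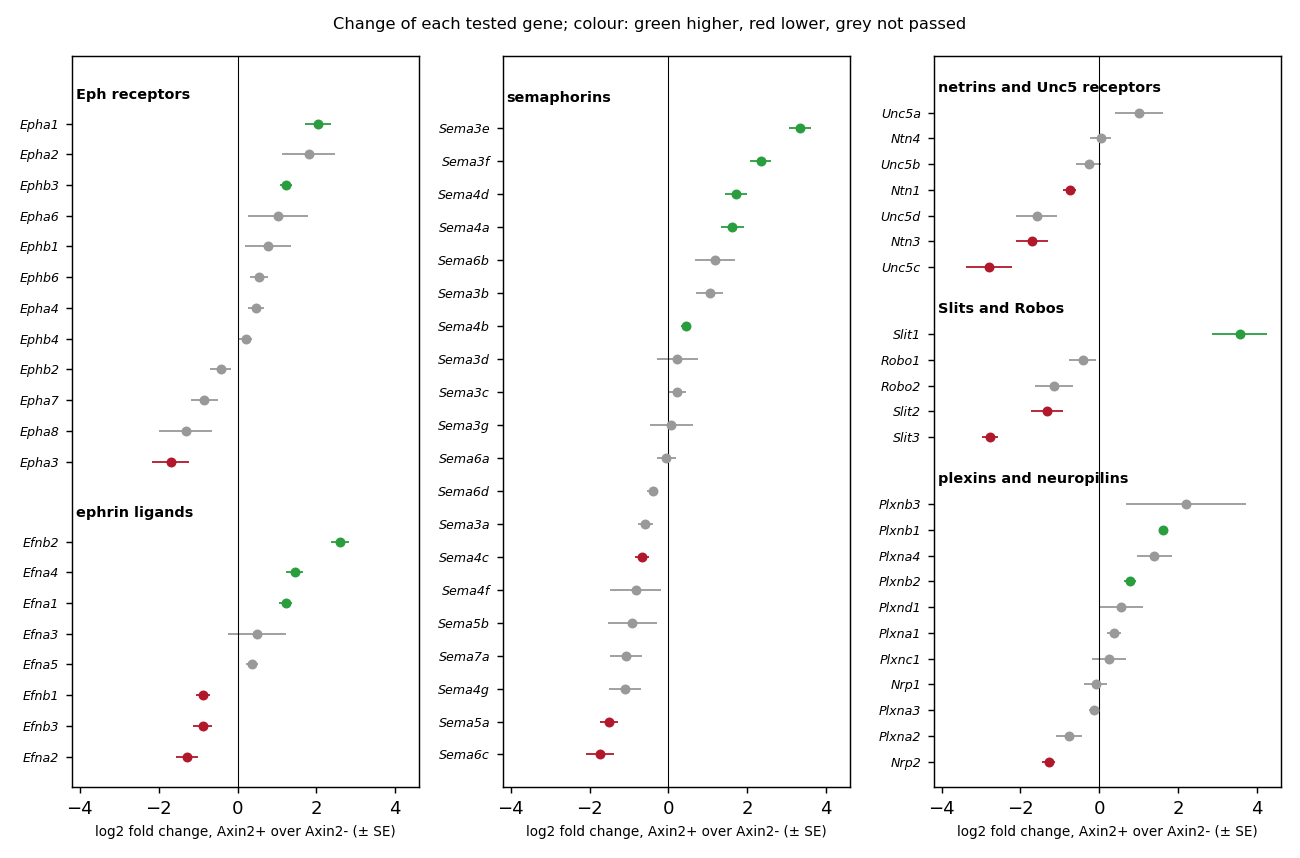
Log2 fold change of each of the 63 tested members (libraries labelled Axin2+ over those labelled Axin2-), with its SE as a bar, by family. Green marks the 13 members that were higher, red the 13 that were lower and grey those that did not pass; the largest difference upward is that of Slit1 (3.56) and the largest downward that of Unc5c (-2.79).

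Among the ephrin ligands, 3 were higher and 3 lower in the libraries labelled Axin2+, and 2 of 8 did not pass (median log2 fold change 0.43). Efnb2, a transmembrane ephrin known as the arterial marker and a ligand of EphB4, stood at 50.4, 65.8 and 60.5 CPM in mice 1 to 3 for the libraries labelled Axin2- and at 365, 439 and 265 CPM in those labelled Axin2+. All 3 libraries labelled Axin2+ were above all 3 labelled Axin2-. The means were 58.9 ± 7.83 and 356 ± 87.1 CPM (± SD of 3 libraries per fraction, here and wherever ± follows a mean CPM), and the log2 fold change was 2.60 ± 0.22 (SE, edgeR adjusted p = 0.000432). Efnb1, the X-linked ephrin-B, went the other way, from 91.1, 95.8 and 62.0 CPM to 45.8, 41.1 and 48.9 CPM. Its log2 fold change was -0.87 ± 0.18 (edgeR adjusted p = 0.0128). Efnb3, the remaining ephrin-B, stood at 26.9, 30.7 and 28.4 CPM and at 13.2, 12.0 and 21.4 CPM (log2 fold change -0.88 ± 0.24, edgeR adjusted p = 0.0314). The 3 ephrin-B genes together thus shifted from a sum of 171 ± 20.7 CPM, mostly Efnb1 and Efnb2, to 417 ± 78.4 CPM, of which Efnb2 made up 356 CPM.

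The ephrin-A ligands, which are held to the membrane by a lipid anchor, were also divided. Efna1, a ligand of EphA2, stood at 9.88, 12.8 and 10.1 CPM in the libraries labelled Axin2- and at 27.3, 26.0 and 22.8 CPM in those labelled Axin2+, a log2 fold change of 1.22 ± 0.17 (edgeR adjusted p = 0.00285). Efna4 stood at 4.32, 4.21 and 4.63 CPM and at 10.8, 14.2 and 11.0 CPM (1.45 ± 0.22, edgeR adjusted p = 0.00358). Neither gene had overlapping groups. Efna2 was lower, at 14.0, 11.3 and 11.0 CPM against 4.42, 3.89 and 6.64 CPM (-1.28 ± 0.27, edgeR adjusted p = 0.0133). Efna5 stood at 33.4, 36.1 and 34.2 CPM and at 52.7, 39.5 and 41.2 CPM and did not pass (edgeR adjusted p = 0.108), although its groups did not overlap. It passed with library-size scaling (adjusted p = 0.0362). Efna3 was under 1 CPM in every library. Of the 6 calls, that of Efnb3 was lost with library-size scaling (adjusted p = 0.0680) and in 5 of the 6 fits that leave out 1 library (0.0740 to 0.104), all but the one without mouse 3 of the Axin2+ libraries. Those of Efna2 and Efnb1 were lost without mouse 1 of the Axin2- libraries (adjusted p = 0.0532 and 0.0538) and without mouse 2 of the Axin2+ libraries (0.0546 and 0.0572), so that 3 ephrins passed in each of these fits.

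Of 12 tested Eph receptors, 2 were higher and 1 was lower in the libraries labelled Axin2+ (median log2 fold change 0.51). Ephb3, a receptor known as a Wnt target in intestinal crypts, stood at 34.9, 29.0 and 32.6 CPM in the libraries labelled Axin2- and at 63.2, 85.5 and 75.5 CPM in those labelled Axin2+ (log2 fold change 1.22 ± 0.15, edgeR adjusted p = 0.00164). Epha1, an epithelial EphA receptor, stood at 5.66, 2.32 and 3.19 CPM and at 15.4, 16.0 and 14.6 CPM (2.04 ± 0.34, edgeR adjusted p = 0.00559). Epha1 overlaps the protein-coding gene Zyx, and whether the counting used strand is not given in the sources used here. Epha3 was lower, at 6.47, 11.6 and 11.0 CPM against 1.38, 2.96 and 4.65 CPM (-1.69 ± 0.47, edgeR adjusted p = 0.0353). The call of Epha3 was lost without mouse 2 or mouse 3 of the Axin2- libraries (adjusted p = 0.0875 and 0.101) and without mouse 2 of the Axin2+ libraries (0.107).

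The EphB receptors Ephb4 and Ephb2 did not pass. Ephb4, the receptor of ephrin-B2, had 95.1, 109.8 and 104 CPM for label Axin2- and 92.6, 146 and 119 CPM for label Axin2+ (log2 fold change 0.21 ± 0.17, edgeR adjusted p = 0.405). Ephb2 had 121 ± 32.6 and 90.3 ± 25.7 CPM (-0.43 ± 0.27, edgeR adjusted p = 0.280). Epha4, which binds ephrins of both classes, stood at 30.7, 48.7 and 43.8 CPM and at 54.1, 67.0 and 49.8 CPM (edgeR adjusted p = 0.124). Ephb6, which lacks kinase activity, stood at 24.2, 24.8 and 28.9 CPM and at 51.8, 29.8 and 32.7 CPM (edgeR adjusted p = 0.112). In both of these the groups did not overlap, and both passed with library-size scaling (adjusted p = 0.0438 and 0.0432), which brought the Eph receptors that passed to 5. Epha7 stood at 20.5, 23.9 and 47.4 CPM and at 14.1, 15.4 and 21.7 CPM, with overlapping groups (edgeR adjusted p = 0.111) and passed when blocked by mouse (adjusted p = 0.0366). Epha2, the EphA receptor of epithelia and tumours, stood at 9.64, 4.18 and 11.6 CPM against 60.3, 16.0 and 12.5 CPM. The library of mouse 1 carried most of that difference, and the test was not passed (log2 fold change 1.81 ± 0.67, edgeR adjusted p = 0.0839). Epha2 passed with DESeq2 (adjusted p = 0.0108) and without mouse 3 of the Axin2+ libraries (0.0475). The library with 60.3 CPM also had the highest epithelial (3834 CPM), luminal (1419.6 CPM), macrophage (3886 CPM) and mesothelial (471 CPM) sums. The part of these markers in Epha2 was not tested. Epha6, Epha8 and Ephb1 had means under 3 CPM in both fractions and did not pass. Epha6 stood at 0.719, 0.297 and 2.74 CPM and at 2.66, 2.34 and 2.66 CPM. It passed without mouse 3 of the Axin2- libraries (log2 fold change 2.34, adjusted p = 0.0388). Epha5 had 32 reads for label Axin2- and 10 for label Axin2+, Epha10 had 2 and 0, and neither was tested.

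**Figure D3:**
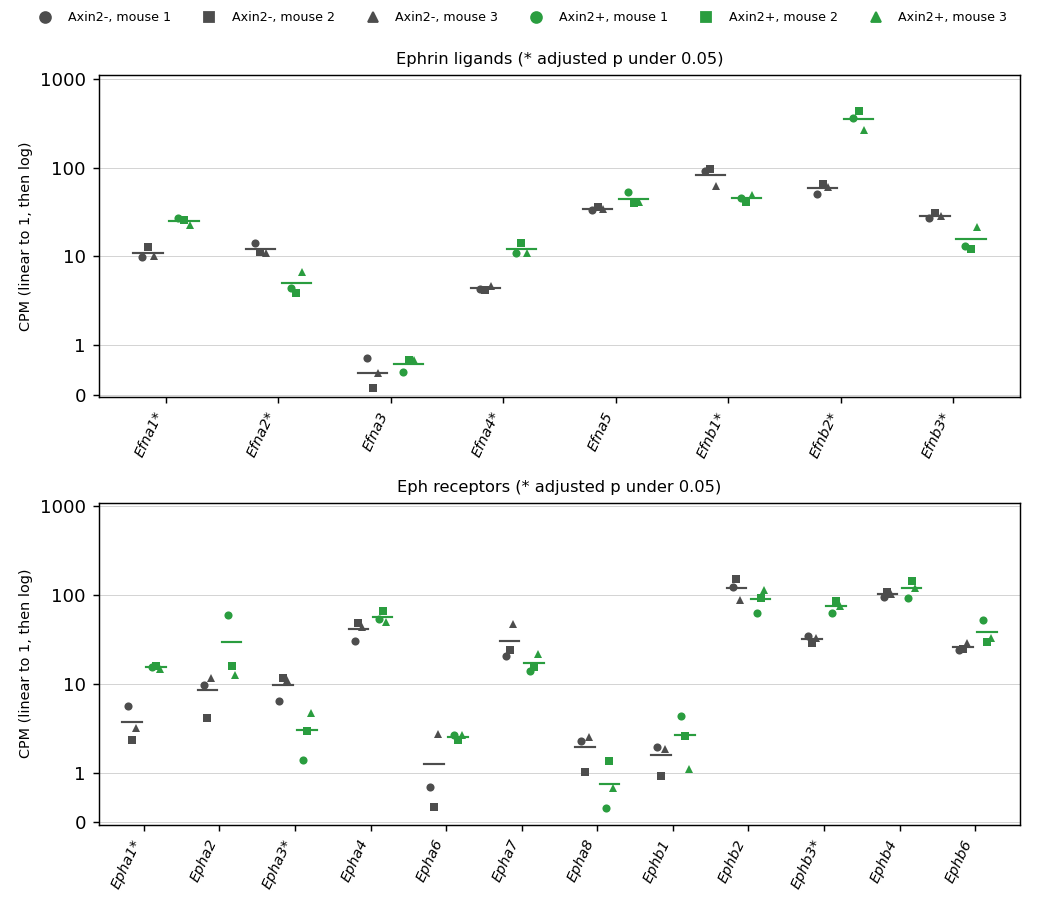
CPM of the 8 ephrins and 12 tested Eph receptors in each library (axis linear up to 1 CPM and logarithmic above), grey for libraries labelled Axin2- and green for those labelled Axin2+, with a bar at each mean and an asterisk on members that passed. Efnb2 rises clear of every other ephrin, to 265 to 439 CPM, whereas the ranges of Ephb2 and Ephb4 overlap between the fractions.

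Over all 20 semaphorins 5 were higher and 3 lower, with a median log2 fold change of 0.01. Class 3 semaphorins are secreted. Of their 7 members, 2 were higher in the libraries labelled Axin2+ and 5 did not pass. Sema3e, which is known for binding plexin D1 without a neuropilin, stood at 4.02, 8.21 and 6.49 CPM in the libraries labelled Axin2- and at 63.6, 71.6 and 55.3 CPM in those labelled Axin2+. Its means of 6.24 ± 2.11 and 63.5 ± 8.17 CPM gave a log2 fold change of 3.35 ± 0.28 (edgeR adjusted p = 0.000434), or 10.2-fold. Sema3f, a neuropilin-2 ligand that inhibits migration, stood at 11.6, 6.05 and 10.6 CPM and at 55.6, 43.7 and 43.7 CPM (2.34 ± 0.27, edgeR adjusted p = 0.00128). Both genes were far outside the range of the other fraction in all libraries. Sema3c, which led the class per kilobase of exon (16.7 and 19.4 CPM per kilobase), stood at 86.8, 149 and 122 CPM and at 153, 111 and 152 CPM, with overlapping groups, and did not pass (log2 fold change 0.22 ± 0.22, edgeR adjusted p = 0.499). Sema3a, a neuropilin-1 ligand, stood at 50.5, 59.0 and 60.0 CPM and at 38.3, 27.9 and 47.5 CPM. Sema3b stood at 13.6, 5.56 and 9.70 CPM and at 24.5, 18.7 and 16.2 CPM. In both the groups did not overlap, but neither passed (edgeR adjusted p = 0.0725 and 0.0557). Sema3b passed when blocked by mouse (adjusted p = 0.0371), with DESeq2 (0.0164), with library-size scaling (0.0322) and without mouse 1 of the Axin2- libraries (0.0326). Sema3a passed with DESeq2 (0.0403) and without mouse 3 of the Axin2+ libraries (0.0298). Sema3d and Sema3g had overlapping groups and adjusted p of 0.767 and 0.927.

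The membrane semaphorins of classes 4 to 7 were split, with 3 of 13 higher and 3 lower. Sema4d, the ligand of plexin B1, stood at 18.0, 9.94 and 21.1 CPM in the libraries labelled Axin2- and at 56.6, 59.5 and 44.4 CPM in those labelled Axin2+ (log2 fold change 1.71 ± 0.28, edgeR adjusted p = 0.00539). Sema4a stood at 13.2, 11.3 and 12.3 CPM and at 54.9, 33.2 and 24.9 CPM (1.62 ± 0.29, edgeR adjusted p = 0.00716). Sema4b was higher by less, at 42.0, 49.0 and 43.1 CPM against 61.6, 66.1 and 54.7 CPM (0.44 ± 0.13, edgeR adjusted p = 0.0380). The 3 class 4 members thus had no overlap between fractions, with folds of 3.28, 3.08 and 1.36. Sema4a was highest in mouse 1 of both fractions. The library labelled Axin2+ of mouse 1 also had the highest epithelial (3834 CPM), luminal (1419.6 CPM), macrophage (3886 CPM) and mesothelial (471 CPM) sums. Among the libraries labelled Axin2-, the mesothelial sum was highest in mouse 1 (224 CPM), but the epithelial, luminal and macrophage sums were not. The part of these markers in Sema4a was not tested.

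Sema5a, a semaphorin with thrombospondin repeats, was lower in the libraries labelled Axin2+. The values were 622, 747 and 580.2 CPM against 186, 192 and 310.1 CPM (log2 fold change -1.50 ± 0.23, edgeR adjusted p = 0.00409). Sema6c, of the class that binds A-type plexins, stood at 22.4, 18.9 and 35.0 CPM and at 4.59, 8.53 and 9.83 CPM (-1.73 ± 0.35, edgeR adjusted p = 0.0114). Sema4c, a plexin B2 ligand, stood at 94.3, 70.3 and 93.7 CPM and at 66.6, 48.7 and 48.5 CPM (-0.66 ± 0.18, edgeR adjusted p = 0.0338). Each of the 3 had its groups apart, with Sema4c the closest. Sema6a stood at 63.9, 91.5 and 93.1 CPM and at 58.0, 104 and 77.3 CPM, with overlapping groups (edgeR adjusted p = 0.895). Sema6d stood at 47.8, 38.5 and 51.7 CPM and at 36.4, 31.5 and 36.9 CPM. Sema4g stood at 9.97, 13.2 and 8.59 CPM and at 2.59, 4.42 and 7.80 CPM. Sema7a stood at 3.69, 2.62 and 4.65 CPM and at 1.40, 2.38 and 1.40 CPM. All 3 had lower levels in each library labelled Axin2+ without overlap, and did not pass (edgeR adjusted p = 0.0930, 0.0883 and 0.0827). Sema6b had higher levels there without overlap, and it also missed the threshold (edgeR adjusted p = 0.123), and Sema4f and Sema5b were low, with adjusted p of 0.378 and 0.307. Sema4g and Sema7a passed with DESeq2 (adjusted p = 0.0305 and 0.0292), Sema4g also without mouse 3 of the Axin2+ libraries (0.0237), and Sema6d without mouse 2 of the Axin2- libraries (0.0440). Sema4b lost its call when blocked by mouse (adjusted p = 0.0525) and without 4 of the 6 libraries in turn, those of mouse 1 in both fractions, mouse 3 of the Axin2- libraries and mouse 2 of the Axin2+ libraries (0.0836 to 0.149). Sema4c lost it with library-size scaling (0.0756) and without the libraries labelled Axin2- of mice 1 and 3 and those labelled Axin2+ of mice 2 and 3 (0.0890 to 0.122).

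Of the 11 plexins and neuropilins, 2 B-type plexins were higher in the libraries labelled Axin2+, 1 neuropilin was lower and 8 did not pass (median log2 fold change 0.37). Plxnb1, the receptor of Sema4d, stood at 51.6, 45.5 and 54.4 CPM in the libraries labelled Axin2- and at 143, 165 and 161 CPM in those labelled Axin2+ (log2 fold change 1.63 ± 0.12, edgeR adjusted p = 0.000315). Plxnb2, a receptor of class 4 semaphorins in epithelia, stood at 311, 332 and 305 CPM and at 619, 565 and 447 CPM (0.78 ± 0.16, edgeR adjusted p = 0.0106). Both were apart in all libraries, and Sema4d and Plxnb1 were thus higher in the same fraction. Nrp2, the co-receptor of Sema3f, was lower, at 259, 229 and 219 CPM against 109, 106 and 76.7 CPM (-1.28 ± 0.16, edgeR adjusted p = 0.00201). The ligand Sema3f and its co-receptor Nrp2 thus differed in opposite directions. Nrp1, the co-receptor of Sema3a, had 119 ± 25.8 and 112 ± 43.5 CPM and overlapping groups (log2 fold change -0.09 ± 0.29, edgeR adjusted p = 0.848).

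The A-type plexins, the receptors that pair with neuropilins, and the single C and D members did not pass. Plxna1 stood at 209.6, 162 and 155 CPM and at 243, 252 and 185 CPM (edgeR adjusted p = 0.162). Plxna2 had 253 ± 46.0 and 149 ± 62.2 CPM (edgeR adjusted p = 0.125), and Plxna3 had 42.8 ± 3.85 and 38.8 ± 3.05 CPM (edgeR adjusted p = 0.452). Plxna4 stood at 58.8, 25.1 and 45.2 CPM against 186, 75.4 and 78.6 CPM, without overlap, and missed the threshold (log2 fold change 1.40 ± 0.44, edgeR adjusted p = 0.0531). Plxna4 passed when blocked by mouse (adjusted p = 0.0129), with DESeq2 (0.00520), with library-size scaling (0.0345) and without mouse 3 of the Axin2+ libraries (0.0480). Plxnd1, the receptor of Sema3e and a gene of endothelium, stood at 142, 48.8 and 182 CPM and at 257, 217 and 77.3 CPM (0.56 ± 0.56, edgeR adjusted p = 0.494). Mouse 2 was lowest in one fraction and mouse 3 in the other. The endothelial marker sums were 203, 223 and 246 CPM and 259.8, 469 and 309 CPM, another order than that of Plxnd1. Plxnc1, the receptor of Sema7a and a gene of immune cells, stood at 16.3, 10.2 and 21.7 CPM and at 28.2, 20.4 and 8.95 CPM (edgeR adjusted p = 0.706). The macrophage sums in the same libraries were 224, 47.3 and 307 CPM and 3886, 2057 and 670.4 CPM, the same order within each fraction as for Plxnc1 and for Plxnd1. The part of these markers in either gene was not tested. Plxnb3 was under 1 CPM in the libraries labelled Axin2- and at 2.09, 0.944 and 0 CPM in those labelled Axin2+ (edgeR adjusted p = 0.319).

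**Figure D4:**
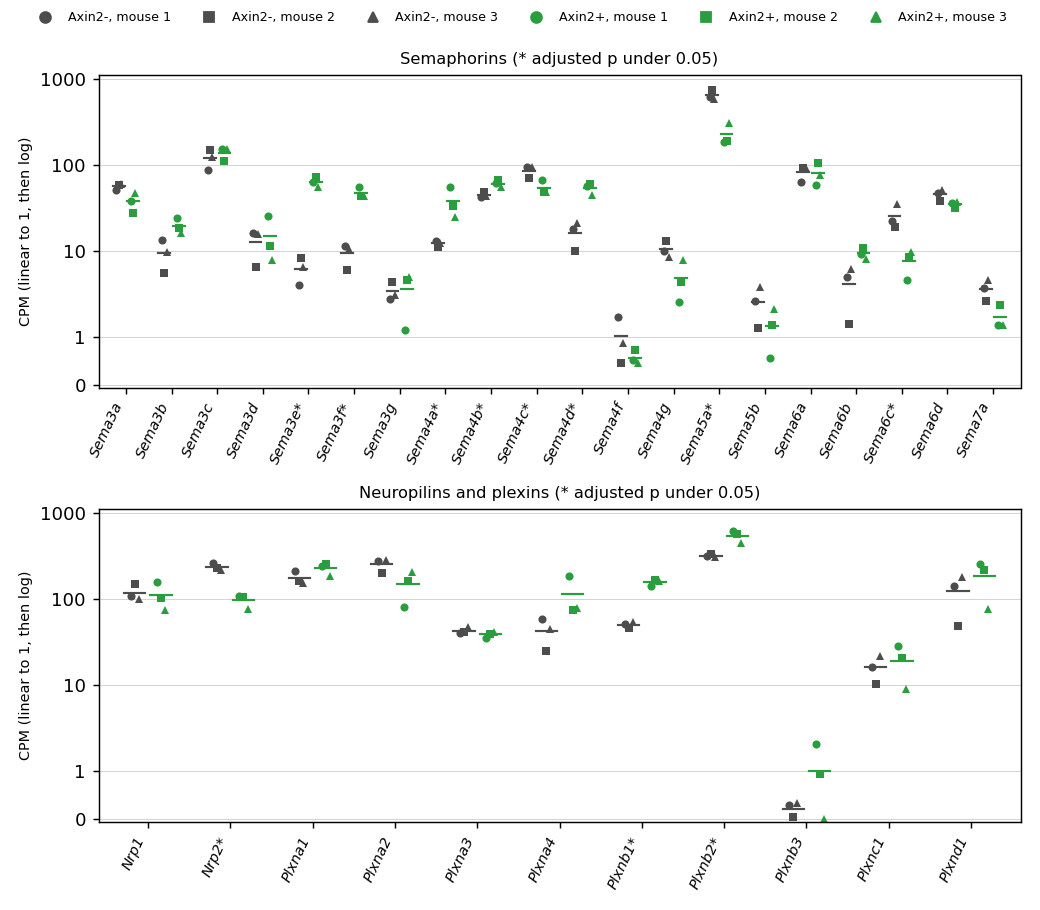
CPM of the 20 semaphorins and of the 11 neuropilins and plexins in each library (axis linear up to 1 CPM and logarithmic above), grey for libraries labelled Axin2- and green for those labelled Axin2+, with a bar at each mean and an asterisk on members that passed. Sema3e moves from 4.02 to 8.21 CPM up to 55.3 to 71.6 CPM, Sema5a drops from 580.2 to 747 CPM to 186 to 310.1 CPM, and the Plxnd1 values overlap.

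The Slits, large secreted proteins with leucine-rich repeats, all passed, and their Robo receptors did not (median log2 fold change -1.15 over the 5 tested genes). Slit3 stood at 214, 156 and 228 CPM in the libraries labelled Axin2- and at 31.4, 23.6 and 32.9 CPM in those labelled Axin2+, a log2 fold change of -2.77 ± 0.20 (edgeR adjusted p = 0.000303) or 6.81-fold. Slit2 was lower too, at 71.0, 42.0 and 100.5 CPM against 33.3, 15.1 and 36.4 CPM (-1.33 ± 0.41, edgeR adjusted p = 0.0499). Slit1 was higher, at 0.156, 0.0524 and 0.227 CPM against 2.42, 1.36 and 1.40 CPM (3.56 ± 0.70, edgeR adjusted p = 0.0100). Its level was under the minimum of 2 CPM for giving members library by library, and it was added after its values were seen. It rested on 22 reads for label Axin2- and 287 for label Axin2+. The summed CPM of the 3 genes was 271 ± 66.4 and 59.3 ± 16.7 CPM. The stromal fibroblast sums stood at 20961, 9822 and 17839 CPM and at 3803, 3114 and 4292 CPM. Within both fractions they were lowest in mouse 2, as Slit2 and Slit3 were. The mesothelial sums and the T and NK cell sums were also lowest in mouse 2 of both fractions. Among the libraries labelled Axin2-, the stromal sum was highest in mouse 1, whereas Slit2 and Slit3 were highest in mouse 3. The part of these markers in the Slits was not tested. Slit2 lay at the threshold and lost its call in 7 of 13 alternatives, among them library-size scaling (adjusted p = 0.0682), no filter on low counts (0.0754) and every fit that left out 1 library other than that labelled Axin2- of mouse 2 (0.0566 to 0.162).

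Robo1, the main Slit receptor of many tissues, stood at 123, 219.9 and 142 CPM and at 69.3, 136 and 156 CPM, with overlapping groups (log2 fold change -0.42 ± 0.34, edgeR adjusted p = 0.390). Robo2 stood at 61.7, 110.4 and 95.2 CPM and at 16.0, 38.0 and 66.3 CPM (-1.15 ± 0.48, edgeR adjusted p = 0.117). It was lower in the library labelled Axin2+ of all 3 mice, but the highest of those exceeded the lowest labelled Axin2-. Robo2 passed when blocked by mouse (log2 fold change -1.34, adjusted p = 0.0336), with DESeq2 (0.0332) and without mouse 3 of the Axin2+ libraries (0.0305). Robo3 had 1 read in all 6 libraries and was not tested.

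Of the 7 tested netrin and Unc5 genes 3 were lower in the libraries labelled Axin2+ and 4 did not pass (median log2 fold change -0.75). Ntn1, the classical secreted netrin, stood at 89.6, 123 and 108 CPM in the libraries labelled Axin2- and at 57.3, 58.0 and 76.0 CPM in those labelled Axin2+ (log2 fold change -0.75 ± 0.17, edgeR adjusted p = 0.0175). Ntn3 stood at 5.85, 11.3 and 6.94 CPM and at 1.64, 2.32 and 3.46 CPM (-1.70 ± 0.40, edgeR adjusted p = 0.0196), and overlaps the protein-coding gene Tbc1d24. Unc5c, a receptor that turns netrin attraction into repulsion, stood at 13.8, 5.07 and 16.9 CPM and at 0.794, 2.00 and 2.36 CPM (-2.79 ± 0.58, edgeR adjusted p = 0.0127). All 3 genes had their groups apart. Like the smooth muscle sums of 6117, 2406 and 5034 CPM, Unc5c was lowest in mouse 2 among the libraries labelled Axin2-. The stromal, macrophage, mesothelial and T and NK cell sums were lowest there too. Unc5c was highest in mouse 3 of that fraction, whereas the smooth muscle sum was highest in mouse 1. Among those labelled Axin2+, Unc5c and the smooth muscle sums (209.6, 319.6 and 416 CPM) were lowest in mouse 1 and highest in mouse 3. The part of these markers in Unc5c was not tested.

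Ntn4, a netrin of basement membranes that binds laminin, stood at 28.7, 41.2 and 33.6 CPM and at 22.0, 43.5 and 41.0 CPM and did not pass (log2 fold change 0.04 ± 0.27, edgeR adjusted p = 0.924). Unc5b, a receptor of endothelial cells, had 13.1 ± 3.05 and 10.9 ± 3.94 CPM (edgeR adjusted p = 0.557), and Unc5a had 0.628 ± 0.372 and 1.27 ± 0.365 CPM (edgeR adjusted p = 0.269). Unc5d, likewise added after its values were seen, stood at 2.97, 1.07 and 1.85 CPM and at 0.638, 0.680 and 0.633 CPM and narrowly missed the threshold (-1.59 ± 0.51, edgeR adjusted p = 0.0566). It passed with DESeq2 (0.0132), with a minimum of 1 CPM in 3 libraries (0.0425) and without mouse 2 of the Axin2- libraries (0.0354). Ntn5 had 1 read for label Axin2- and 22 for label Axin2+, 20 of these in mouse 1, and was not tested. Ntn1 lost its call without mouse 3 of the Axin2- libraries (adjusted p = 0.0557) and Ntn3 without mouse 2 of the Axin2- libraries (0.0531). Both were lost without mouse 2 of the Axin2+ libraries (0.0744 for Ntn1 and 0.0739 for Ntn3), which left Unc5c alone in the family.

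**Figure D5:**
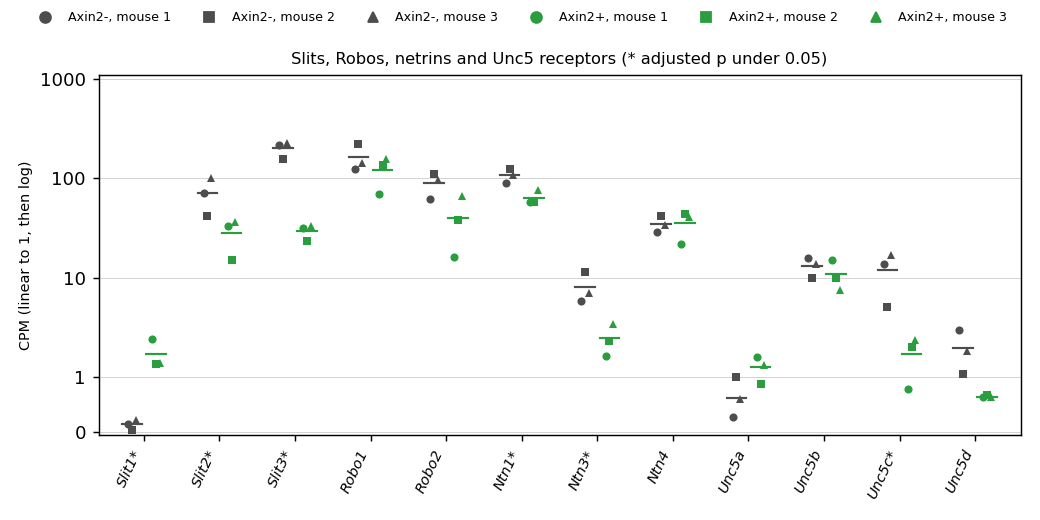
CPM of the tested Slit, Robo, netrin and Unc5 genes in each library (axis linear up to 1 CPM and logarithmic above), grey for libraries labelled Axin2- and green for those labelled Axin2+, with a bar at each mean and an asterisk on members that passed. Slit3 drops from 156 to 228 CPM to 23.6 to 32.9 CPM, Slit1 is the asterisked member that is higher in the libraries labelled Axin2+, and the values of Ntn4 overlap.

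Ligands passed more often in number than receptors, with 9 higher and 10 lower of 34 tested ligands against 4 higher and 3 lower of 29 tested receptors. Of all tested genes 27.3% passed, 14.5% higher and 12.8% lower. The difference between ligands and receptors was not tested. Per kilobase of annotated exon, which allows levels of different genes to be compared, Plxnb2 was the highest member in both fractions, at 40.9 CPM per kilobase for label Axin2- and 70.4 for label Axin2+. In the libraries labelled Axin2- it was followed by Sema5a (34.8), Slit3 (32.9), Efnb1 (24.0) and Ephb4 (22.2), and in those labelled Axin2+ by Efnb2 (52.0), Ephb4 (25.7), Plxnd1 (25.2) and Plxna1 (25.0). Among the ephrins Efnb1 led in the libraries labelled Axin2- and Efnb2 in those labelled Axin2+, where Efna1 came next (13.9) and Efnb1 after it (13.1). Slit3, per length, went from 32.9 to 4.83 CPM per kilobase and Slit1 from 0.0245 to 0.291. The lengths are the union of all exons of GENCODE M21, which counts rare long isoforms in full and so lowers the figure for genes such as Slit2 and Unc5c.

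Some members lie in the same region of a chromosome, though not directly side by side, and not all of these passed together. Whether their position plays a part was not tested. Efna4 (chr3:89333390-89338028, minus strand of mm10), Efna3 (chr3:89313899-89322965) and Efna1 (chr3:89271733-89281142) follow each other. The outer pair was higher in the libraries labelled Axin2+, whereas Efna3, between them, had means of 0.437 ± 0.300 and 0.618 ± 0.147 CPM and did not pass (edgeR adjusted p = 0.649). On chromosome 5 the class 3 genes Sema3d, Sema3a, Sema3e (chr5:14025276-14256689, plus strand) and Sema3c follow in this order between 12383385 and 17730268. Sema3c lies far from the rest, starting at 17574281. Of these 4 Sema3e passed, and the log2 fold changes were 0.23 for Sema3d, -0.58 for Sema3a and 0.22 for Sema3c. On chromosome 9 Sema3b (chr9:107597674-107609229) and Sema3f (chr9:107681500-107710475), both on the minus strand, had log2 fold changes of 1.05 and 2.34, of which that of Sema3f passed.

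The members also varied between libraries of the same fraction. Among members with a mean of at least 2 CPM in the fraction, the highest library exceeded the lowest by a median of 1.54-fold over 54 members in the libraries labelled Axin2- and 1.65-fold over 53 in those labelled Axin2+. In the libraries labelled Axin2- the widest were Sema6b (4.32-fold), Plxnd1 (3.74-fold) and Unc5c (3.34-fold), each highest in mouse 3 and lowest in mouse 2. Mouse 2 held the lowest value of that fraction for 32 of the 63 tested members (50.8%, against 36.9% of all tested genes), and mouse 3 for 9 (14.3%, against 32.7%). The same library of mouse 2 had the lowest stromal fibroblast, smooth muscle, macrophage, mesothelial and T and NK cell sums of its fraction. Its epithelial (342 CPM) and luminal (177 CPM) sums were the highest of that fraction, and its gland, endothelial and nerve sums lay in between. In the libraries labelled Axin2+ the widest were Epha2 (4.84-fold), Robo2 (4.14-fold) and Sema3g (4.13-fold). Epha2 was highest in mouse 1 and lowest in mouse 3, and Robo2 and Sema3g the reverse. Whether the cell type markers play a part in these orders was not tested.

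Other guidance molecules and partners of these receptors were looked at as well. Whether their shares that passed differ from those of all tested genes was not tested. Of 35 tested co-receptors and partners, 10 were higher and 7 lower in the libraries labelled Axin2+, with a median log2 fold change of -0.24 against -0.01 over all tested genes. The shares of all tested genes that passed were 14.5% higher and 12.8% lower. Met, a receptor kinase that associates with plexin B1, was higher at 60.0, 73.1 and 61.8 CPM against 6.69, 8.06 and 8.67 CPM (log2 fold change 3.06 ± 0.16, edgeR adjusted p = 0.000192). Cntn1, a cell adhesion molecule of the immunoglobulin family, was lower at 1.10, 1.55 and 1.28 CPM against 22.4, 16.8 and 16.0 CPM (-3.81 ± 0.26, edgeR adjusted p = 0.000254). The netrin receptors Dcc and Neo1, chosen after their values were seen, did not pass. Neo1 had 219.7 ± 34.0 and 166 ± 19.4 CPM (edgeR adjusted p = 0.0943) and Dcc 4.37 ± 2.88 and 2.87 ± 2.00 CPM (edgeR adjusted p = 0.570). Of 68 tested intracellular effectors 12 were higher and 12 lower (median log2 fold change 0.09), near the same 14.5% and 12.8% of all tested genes. Among the lower ones Mical1, chosen after its values were seen, had the smallest p. Its means were 16.5 ± 1.63 CPM in the libraries labelled Axin2+ against 52.3 ± 12.1 CPM (-1.66 ± 0.20, edgeR adjusted p = 0.00159). Grb7, an adaptor of receptor kinases, was higher at 68.8, 91.6 and 73.7 CPM against 3.09, 7.90 and 6.24 CPM (3.76 ± 0.35, edgeR adjusted p = 0.000653), as was Limk2, a kinase of the actin-severing protein cofilin, at 88.9, 92.4 and 92.1 CPM against 47.6, 48.3 and 48.2 CPM (0.92 ± 0.10, edgeR adjusted p = 0.000912). Met is also 1 of the 6 luminal epithelium markers, all of which were higher in the same libraries.

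The authors' deposited table lists 62 of the members. At an FDR under 0.05, 13 of these are higher and 14 lower in the authors' deposited table, and all 26 members that passed here are among them. The additional one is Unc5d, with a log2 fold change of -1.60 and an FDR of 0.0483 in the authors' deposited table.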

How the data were processed

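RNA-seq libraries of 3 mice and 2 sorted fractions were analysed from the count table. The authors deposited gene counts in mm10. Per the submitters' processing notes, the tools included STAR 2.5.3a, Subread with featureCounts 1.5.3, edgeR 3.22.5, StringTie 1.3.3 and bcl2fastq 2.20.0.422. For annotation version and strand setting the sources used here give nothing. The authors' deposited comparison table gives log2 fold changes, and p-values with an FDR, which are quoted only where named.

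Counts were tested with edgeR 4.0.16 in R 4.3.3 (filterByExpr, TMM scaling, robust quasi-likelihood F test, Benjamini-Hochberg adjustment over all 16896 tested genes, threshold 0.05). TMM factors averaged 0.943 (Axin2-) and 1.06 (Axin2+). CPM use these scaled library sizes. Totals of 49714402 to 59597315 counts limit precision mainly for members under about 1 CPM. No 2 libraries of a fraction agreed within sampling noise (chi-square per degree of freedom at least 59.7).

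The labels give the numeral as the mouse number but also speak of pooled cells, so that same-numbered libraries may or may not be of 1 animal. A fit with this number as a block was run. Deviations of same-numbered libraries correlated at 0.27, 0.01 and -0.07 for mice 1, 2 and 3. Those of differently numbered libraries correlated at -0.24 to 0.25. Alternatives were DESeq2 1.42.0, upper quartile and library-size scaling, no filter, minimums of 1 CPM and 0.5 CPM in 3 libraries, the block, and leaving out each library.

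The members and lists were chosen with earlier results of these data known. Library values are given for up to 4 members per family and direction with the smallest p among those that passed with a mean of at least 2 CPM, for the most abundant that did not pass, and for those whose call changes. Plxnb3, Plxnc1 and Plxnd1 are given by library outside these rules, after their values were seen. Up to 2 genes of each other list, those with the smallest p, are named, besides those said to be chosen later. Of 188 listed genes 4 were found under an older symbol. Gene coordinates and exon lengths are from GENCODE M21 (mm10), by which 42 of the 67 members share bases with another gene and 6 with a protein-coding gene.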

Additional observations from a re-analysis of the deposited data

How the results depend on the processing

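Of the 26 members that passed, 17 (12 higher and 5 lower) passed in all 13 alternatives, 9 lost the call in at least 1, and 14 of the 37 that had not passed did so in at least 1. With the mouse as a replicate block 14 members were higher and 15 lower, while the shares of all tested genes were 12.3% and 11.1%, against 14.5% and 12.8%. It changed the calls of Sema4b, Epha7, Plxna4, Robo2 and Sema3b and no other call of a member. DESeq2 called 16 higher and 18 lower, among 36.1% of all genes. Library-size scaling gave 5 Eph receptors that passed, against 3, and a median log2 fold change of 0.25 over the members, against 0.08. Leaving out 1 library at a time gave 5 to 14 lower members, 3 to 6 ephrins and 1 to 3 netrin and Unc5 genes. In these fits, which have fewer samples, 6.04% to 11.0% of all tested genes were lower and 14.6% to 23.6% passed, against 12.8% and 27.3%. The log2 fold change changed sign in 7 members near 0 that did not pass. With library-size scaling it was 0.07 for Nrp1, 0.03 for Plxna3 and 0.12 for Sema6a. With the block it was -0.003 for Ntn4 and -0.12 for Sema3g. Leaving out 1 library gave ranges of -0.43 to 0.14 for Nrp1, -0.13 to 0.30 for Ntn4, -0.13 to 0.60 for Plxnc1, -0.39 to 0.55 for Sema3d, -0.22 to 0.50 for Sema3g and -0.29 to 0.14 for Sema6a. The cause of these turns was not tested. Depth limits members such as Slit1 and Plxnb3, which rest on few reads in 1 fraction.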
